A study of Mus musculus with 16 samples.

Results

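The variable segments of the immunoglobulin kappa light chain were followed as 1 family: every gene whose symbol begins with Igkv and a digit in both deposited count tables. This gave 101 segments of 22675 genes. Of these, 100 matched GENCODE M21 (GRCm38), where all are variable genes on chromosome 6, between 18.4 and 3166.3 kb from the first joining segment, Igkj1. Igkv8-23-1 had no match and takes part in all values except those that use position, strand or length. A B cell makes its kappa chain by joining 1 of these V segments to 1 of the joining segments upstream of the constant gene Igkc, by deletion of the DNA in between or by inversion, depending on the orientation of the V segment. Each kappa-expressing B cell as a rule uses 1 productive Igkv segment, so in a pool of cells the spread of counts over the segments describes which light chains the pool expresses. A B cell that does not express kappa can express a lambda light chain from the far smaller lambda locus.

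RNA was sequenced by Smart-seq2 from libraries of about 1000 sorted spleen B cells of C57BL/6 mice, 7 days after immunization with the hapten carrier NP-OVA in LPS and alum. KOTP and KOTN are tdTomato-positive and tdTomato-negative cells of the genotype Zfp318ZSDAT/ZSDAT, and HetTP and HetTN are the same sorts of the genotype Zfp318ZSDAT/+. The ZSDAT allele of Zfp318, a zinc finger protein needed for IgD expression, is thus homozygous in KO and heterozygous in Het cells, and there was no group without it. All groups carried AID-Cre, a Cre expressed with the activation-induced deaminase, and B1-8hi GFP, a knock-in heavy chain. B1-8hi binds NP and its analogue NIP when paired with a lambda 1 light chain. The sorted cells were B220+ CD38+ and bound NIP, and were negative for CD138, GL7, FAS and surface IgD, so antigen binding was a gate and not a readout. Each group had 4 libraries, numbered 1 to 4, with totals of 7748787 to 15742445 counts; the labels do not say whether they came from separate animals. KO and Het libraries stand in separate deposited tables, so genotype cannot be told apart from a difference in batch or counting. Because Zfp318 is needed for IgD expression, the gate on surface IgD need not have selected alike cells in both genotypes. This was not tested. Of the gene values, 3943 were exactly 2 and 587 exactly 1 in KO libraries, against 1273 and 544 in Het libraries. Whether both reads of a pair were counted, and alike in both tables, is not given in the sources used here, so a count need not be a separate fragment. Counting intervals, floors and comparisons of the genotypes at a common count depth are uncertain to that extent. Zfp318 itself ranged from 0.467 to 5.82 CPM (counts scaled to 1e+06 per library) in KO and from 70.9 to 153 CPM in Het libraries. Among the Het libraries, HetTP-1 and HetTN-2 stood apart in Igkv use and HetTN-1 in lambda, as given with the results below.

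Sequences of the segments on which the results turn are given here from GENCODE M21, each as the last 300 bases of the coding sequence, 5' to 3' on the sense strand. Igkv1-135, the segment with the highest mean share over the 16 libraries, lies on GRCm38 chromosome 6 from 67609713 to 67610508 on the plus strand. Igkv6-15 (70406469 to 70406992, minus strand) and Igkv8-18 (70355852 to 70356445, plus strand) were the leading pair of library HetTN-2. Their whole coding sequences were 70.1% identical.
Igkv1-135: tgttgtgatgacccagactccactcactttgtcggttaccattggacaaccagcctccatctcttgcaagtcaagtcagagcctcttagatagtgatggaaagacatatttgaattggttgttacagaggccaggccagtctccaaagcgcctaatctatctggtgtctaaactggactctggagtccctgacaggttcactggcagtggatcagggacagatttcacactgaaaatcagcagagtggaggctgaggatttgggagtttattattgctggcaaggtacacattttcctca
Igkv6-15: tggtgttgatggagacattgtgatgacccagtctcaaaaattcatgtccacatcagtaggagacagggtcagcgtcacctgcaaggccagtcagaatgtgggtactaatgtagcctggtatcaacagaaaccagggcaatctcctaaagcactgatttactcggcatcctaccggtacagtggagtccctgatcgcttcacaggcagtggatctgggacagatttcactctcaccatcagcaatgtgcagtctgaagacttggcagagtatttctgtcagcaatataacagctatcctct
Igkv8-18: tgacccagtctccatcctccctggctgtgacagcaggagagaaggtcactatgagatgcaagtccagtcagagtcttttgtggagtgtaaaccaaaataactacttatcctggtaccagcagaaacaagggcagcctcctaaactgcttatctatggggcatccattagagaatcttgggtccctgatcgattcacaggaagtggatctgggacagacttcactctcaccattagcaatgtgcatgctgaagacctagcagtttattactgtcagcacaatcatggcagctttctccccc

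Igkv14-126 (67896172 to 67896642, plus strand) and Igkv14-111 (68256389 to 68256869, plus strand) were the leading pair of library HetTP-1. Their coding sequences were 91.5% identical, and capitals mark the 27 bases that differ in the stretch shown.
Igkv14-126: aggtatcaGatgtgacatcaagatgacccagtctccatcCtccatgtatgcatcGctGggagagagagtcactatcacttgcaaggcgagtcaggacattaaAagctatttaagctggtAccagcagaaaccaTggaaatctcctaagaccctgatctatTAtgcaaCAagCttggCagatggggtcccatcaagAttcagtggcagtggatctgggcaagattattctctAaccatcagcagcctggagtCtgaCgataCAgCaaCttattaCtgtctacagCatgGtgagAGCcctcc
Igkv14-111: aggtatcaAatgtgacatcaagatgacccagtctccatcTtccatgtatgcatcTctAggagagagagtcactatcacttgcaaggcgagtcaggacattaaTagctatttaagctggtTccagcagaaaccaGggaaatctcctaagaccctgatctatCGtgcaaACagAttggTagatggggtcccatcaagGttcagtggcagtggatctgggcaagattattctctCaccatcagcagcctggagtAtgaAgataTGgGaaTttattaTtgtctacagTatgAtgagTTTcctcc

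Igkv10-95 (68680379 to 68680848, plus strand) and Igkv10-96 (68631963 to 68632442, minus strand) lie close together and differed between KOTP and HetTP in opposite directions. They were 94.2% identical over the coding sequence, and capitals mark the 19 bases that differ in the stretch shown.
Igkv10-95: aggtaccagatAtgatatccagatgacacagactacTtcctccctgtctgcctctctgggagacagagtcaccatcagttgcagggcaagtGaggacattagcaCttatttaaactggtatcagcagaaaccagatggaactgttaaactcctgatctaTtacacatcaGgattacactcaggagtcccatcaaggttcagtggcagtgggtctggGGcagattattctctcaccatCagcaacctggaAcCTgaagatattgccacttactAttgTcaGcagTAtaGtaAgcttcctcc
Igkv10-96: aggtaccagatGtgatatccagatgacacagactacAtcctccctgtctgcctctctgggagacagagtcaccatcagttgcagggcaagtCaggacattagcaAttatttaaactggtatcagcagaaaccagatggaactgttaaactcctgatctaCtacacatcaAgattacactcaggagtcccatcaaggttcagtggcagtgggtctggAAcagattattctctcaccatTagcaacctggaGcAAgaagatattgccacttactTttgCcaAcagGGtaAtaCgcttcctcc

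Near-identical copies limit how finely these counts can be read. Of the 100 segments, 46 had another segment with at least 95% identical coding sequence, and the median identity to the most alike segment was 94.3%. Igkv1-135 was 96.7% identical to Igkv1-133, Igkv1-110 97.2% to Igkv1-117, Igkv8-18 97.8% to Igkv8-26 and Igkv10-95 97.1% to Igkv10-94. How reads that map to several segments were counted is not given in the sources used here, so a value of such a segment is uncertain. Coding lengths ran only from 338 to 371 bases, and the 10 segments with the highest mean share were also the 10 highest per length, so levels of segments are compared as counts.

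Kappa variable transcripts were several-fold lower in KO than in Het cells. Summed over the 101 segments, KOTP libraries had 691, 694, 735 and 618 CPM and HetTP libraries 9173, 3372, 3133 and 4325 CPM. KOTN libraries had 712, 813, 701 and 766 CPM and HetTN libraries 4077, 10428, 4459 and 4480 CPM. Every KO library lay below every Het library. The means were 684 ± 48.7 CPM in KOTP and 5001 ± 2829 CPM in HetTP, 7.31 times as high in HetTP, and 748 ± 51.8 CPM in KOTN and 5861 ± 3050 CPM in HetTN, 7.84 times as high in HetTN (SD, n = 4 per group). The sum is a score over the segments and was given no test. In bulk libraries, fewer kappa-expressing cells and less kappa RNA per cell cannot be told apart.

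The constant gene Igkc went with the segments. It averaged 1330 ± 98.8 CPM in KOTP and 7890 ± 3850 CPM in HetTP, with a log2 fold change of -2.57 (SE 0.29, edgeR quasi-likelihood test, adjusted p = 1.3e-05). It averaged 1410 ± 92.2 CPM in KOTN and 12200 ± 5630 CPM in HetTN, with a log2 fold change of -3.12 (SE 0.29, edgeR adjusted p = 2.51e-06; SD, n = 4 per group). Igkv counts per Igkc count were alike, at 0.472 to 0.568 in KO and 0.411 to 0.678 in Het libraries. Of the 4 comparisons made, this ratio did not overlap between the Het sorts alone, with 0.557 to 0.678 in HetTP and 0.411 to 0.511 in HetTN. Lambda went the other way. Iglv1, Iglv2 and Iglv3 together had 10538 to 12329 CPM in the 8 KO libraries. In Het libraries they had 1025 to 2536 CPM, apart from HetTN-1 at 11232 CPM. Of all counts on kappa and lambda variable segments, Igkv held 4.99 to 6.95% in KO and 26.6 to 83.0% in Het libraries, the lowest Het value again being HetTN-1.

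**Figure D1:**
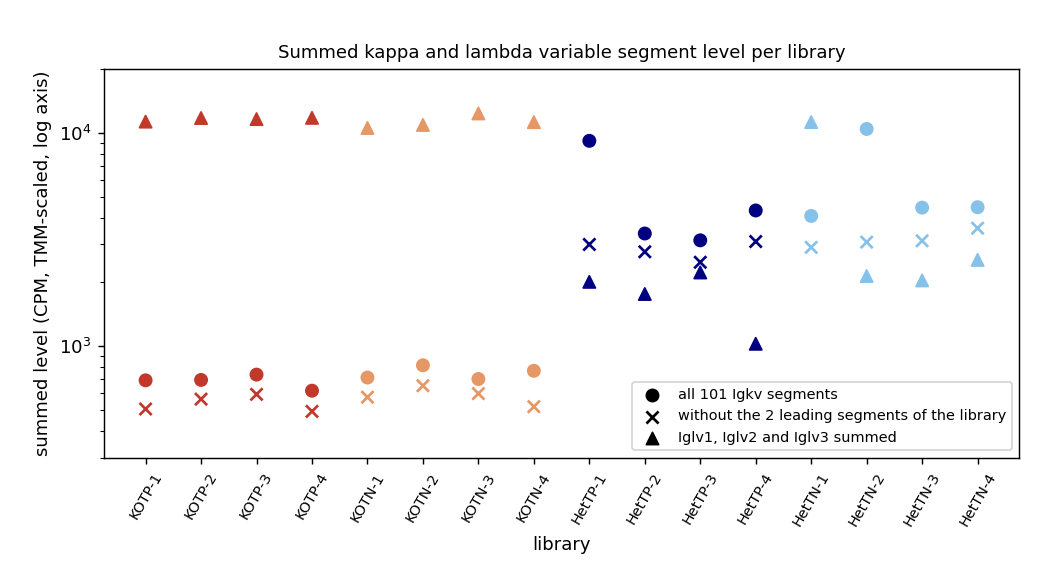
Summed level of the 101 Igkv segments in each library (circles), the same without the 2 most used segments of that library (crosses) and the summed level of Iglv1, Iglv2 and Iglv3 (triangles), in TMM-scaled CPM on a log axis, with the 4 groups in colour. KO circles lie between 618 and 813 CPM and Het circles between 3133 and 10428 CPM, while without the 2 leading segments the Het crosses lie between 2472 and 3572 CPM.

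Much of the spread among Het libraries lay in single segments. HetTP-1 held 46803 counts of Igkv14-126 and 27432 of Igkv14-111, which were 42.5% and 24.9% of its Igkv counts. HetTN-2 held 47177 counts of Igkv6-15 and 37839 of Igkv8-18, 39.1% and 31.4% of its Igkv counts. Igkv8-18 was rare elsewhere: it made up 0.388% at most in the other 15 libraries and had no count in 9 of them. With the 2 leading segments of each library left out, Igkv levels were 507, 564, 594 and 494 CPM in KOTP, 2996, 2768, 2472 and 3092 CPM in HetTP, 576, 652, 599 and 520 CPM in KOTN and 2904, 3073, 3117 and 3572 CPM in HetTN. HetTP-1 and HetTN-2 then fell among the other Het libraries. The genotypes still did not overlap, and Het means were 5.25 times KO means among tdTomato-positive and 5.4 times among tdTomato-negative cells.

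KO cells spread fewer kappa counts over more segments. The effective number of segments, which is the exponential of the Shannon entropy of the shares and equals 101 if all are used equally, was 35.2, 45.3, 45.1 and 39.1 in KOTP and 8.94, 29.6, 30.5 and 27.0 in HetTP. It was 43.0, 43.2, 43.6 and 29.6 in KOTN and 29.7, 8.28, 29 and 34.4 in HetTN. KOTP and HetTP did not overlap, whereas KOTN-4, at 29.6, lay within the HetTN range. The group means were 41.2 ± 4.91 in KOTP and 24.0 ± 10.2 in HetTP, and 39.9 ± 6.84 in KOTN and 25.3 ± 11.6 in HetTN (SD, n = 4 per group). Within a genotype the sorts overlapped. The Simpson number, which weights the most used segments more, overlapped between the genotypes in both sorts, with 11.1 to 30.4 in KO and 3.91 to 23.5 in Het libraries.

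KO libraries had the fewer Igkv counts, 5136 to 8038 against 36680 to 120536 in Het libraries. They had more segments with a count, 78 to 85 against 68 to 75 in Het libraries. At a common depth of 5136 Igkv counts, the number expected was 77.6 to 84.5 segments in KO and 55.8 to 64.9 in Het libraries. Over the 8 libraries of a genotype, 98 segments had a count somewhere in KO and 96 in Het, while 53 had a count in all 8 KO and 36 in all 8 Het libraries. Reads carried no molecular identifiers, so counts of 1 segment need not be separate molecules.

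**Figure D2:**
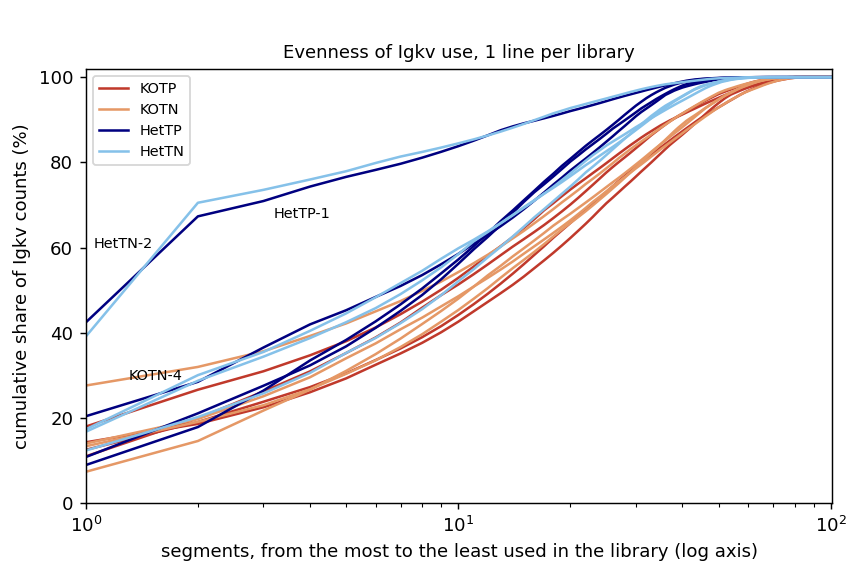
Cumulative share of Igkv counts (percent) against the number of segments, ordered from the most to the least used within each library (log axis), 1 line per library and 1 colour per group. The leading 10 segments hold 42.6 to 54.2% in KO and 52.1 to 84.5% in Het libraries, and HetTP-1 and HetTN-2 stand above the rest from the first segments on.

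Which segments led differed between the genotypes. Igkv1-135 led 7 of the 8 KO libraries. Its share was 18.0, 14.3, 12.6 and 11.0% in KOTP and 2.27, 8.56, 10.3 and 20.4% in HetTP, whose ranges overlapped. It was 13.4, 14, 7.23 and 27.6% in KOTN and 3.29, 3.03, 2.43 and 2.3% in HetTN, where no library reached the lowest KOTN value. The remaining KO library, KOTN-3, was led by Igkv4-86 at 7.41%. Igkv2-137, the segment farthest from Igkj1, ranked second in KO cells, with 8.65, 2.66, 6.54 and 4.3% in KOTP and 0.132, 1.09, 1.42 and 1.85% in HetTP. It had 3.0, 4.44, 7.15 and 2.83% in KOTN and 3.08, 0.192, 0.643 and 1.33% in HetTN. Igkv17-121, among the 3 highest segments of KOTN, had 5.72, 4.46, 3.41 and 2.2% there and 0.188, 2.42, 0.62 and 0.00202% in HetTN.

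Each Het library had its own leader but 1 pair. Igkv14-126 led HetTP-1 at 42.5%, Igkv6-15 led HetTP-2 at 8.99%, Igkv6-23 led HetTP-3 at 10.9% and Igkv1-135 led HetTP-4 at 20.4%. Igkv3-4 led HetTN-1 at 16.8%, Igkv6-15 led HetTN-2 at 39.1%, Igkv5-39 led HetTN-3 at 17.4% and Igkv1-117 led HetTN-4 at 12.4%. These are 7 different leading segments, against 2 in the KO libraries. A share of 10% or more was reached by 1 segment in any KO library and by 11 segments in any Het library. Igkv3-4 shows how uneven the Het use was: it had 0, 0, 1.19 and 0.502% in HetTP and 16.8, 0.0216, 1.76 and 0% in HetTN, while it stayed between 0 and 1.66% in KO libraries.

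KO libraries also resembled each other more. The shared use of 2 libraries, the sum over segments of the smaller of their 2 shares, had a median of 61.8% over the 28 pairs of KO libraries, with a range of 51.4 to 71.0%. The median was 35.2% over the 28 pairs of Het libraries, with a range of 16 to 49.5%, and 40.8% over the 64 pairs of a KO and a Het library. No Het pair reached the lowest KO pair. KOTP and KOTN shared 7 of their 10 highest segments, HetTP and HetTN 3, and KO and Het 2. Among the 34 segments with a mean share of at least 0.5% in both genotypes, the coefficient of variation of the share had a median of 65.8% over KO and 100% over Het libraries, and was higher in Het for 29. These are descriptions of the libraries, and pairs that share a library are not independent. Macrophage genes, given below, also ranged more widely in Het libraries, at 109 to 1130 CPM summed against 47.5 to 94.9 CPM in KO libraries. T cell genes were higher in Het libraries, at 129 to 554 CPM summed against 0.277 to 1.82 CPM in KO libraries. The part of these genes in the Igkv differences was not tested.

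**Figure D3:**
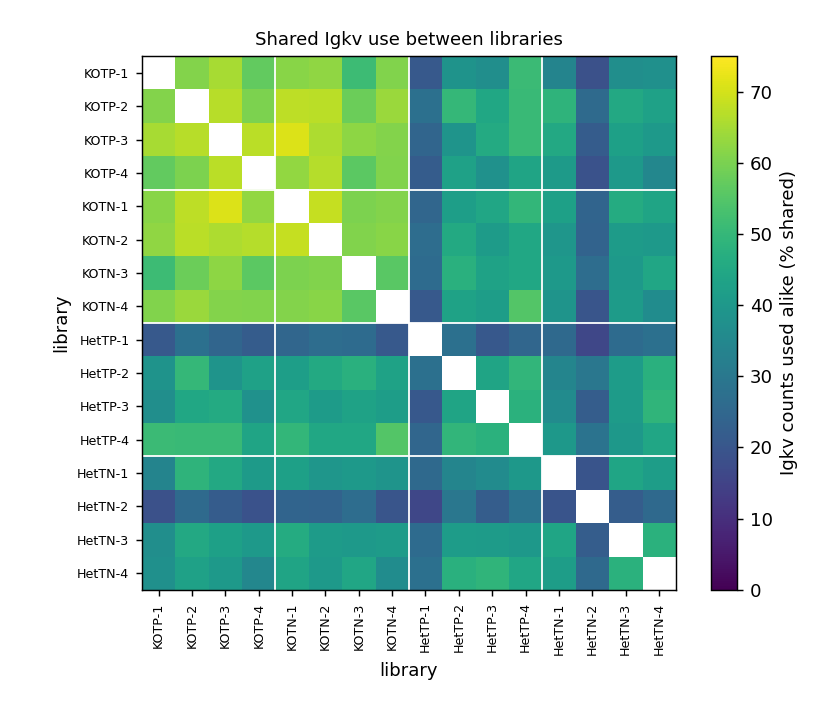
Shared Igkv use of each pair of the 16 libraries in percent (colour), with white lines between the groups KOTP, KOTN, HetTP and HetTN. The block of 8 KO libraries lies between 51.4 and 71.0%, and the rows of HetTP-1 and HetTN-2 are the darkest.

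Along the locus, the end far from Igkj1 held more of the use in KOTN than in HetTN, whereas KOTP and HetTP overlapped. The 25 segments farthest away, at 2180.1 to 3166.3 kb, held a mean of 43.2% of Igkv counts in KOTP (39.5 to 47.0%) and 48.7% in HetTP (27.2 to 78.9%). They held 48.6% in KOTN (44.4 to 55.1%) and 22.6% in HetTN (11.4 to 28.0%), 2 groups without overlap. The nearest 25, at 18.4 to 583.5 kb, held 15.9% in KO libraries (10.3 to 21.4%), 24.4% in HetTP (6.56 to 35.1%) and 37.2% in HetTN (19.6 to 75.2%). Igkv1-135 is among the farthest segments and the pair Igkv6-15 and Igkv8-18 of HetTN-2 is among the nearest, so single segments weigh in these sums. By orientation the genotypes overlapped: plus strand segments, 38 of 100, held 53.5% in KO (45.1 to 61.9%) and 50.4% in Het libraries (33.8 to 80.5%).

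By subfamily, which the first number of the symbol gives, the 26 segments of Igkv4 held 18.9% in KO (11.0 to 28.1%) and 9.77% in Het libraries (4.84 to 15.9%). Igkv1, with 10 segments, held 22.8% in KO (16.7 to 35.5%) and 13.8% in Het libraries (4.96 to 24.0%). The 3 segments of Igkv2 held 8.3% in KO (4.61 to 12.8%) and 2.86% in Het libraries (0.437 to 4.93%). Igkv6, with 9 segments, was the smaller in KO, at 5.07% (2.21 to 8.78%) against 16.1% in Het libraries (1.95 to 42.6%). Igkv14, with 4 segments, had 2.71% in KO (1.04 to 5.81%) and 12.0% in Het libraries, with 67.3% in HetTP-1. All these subfamily ranges overlapped between the genotypes.

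**Figure D4:**
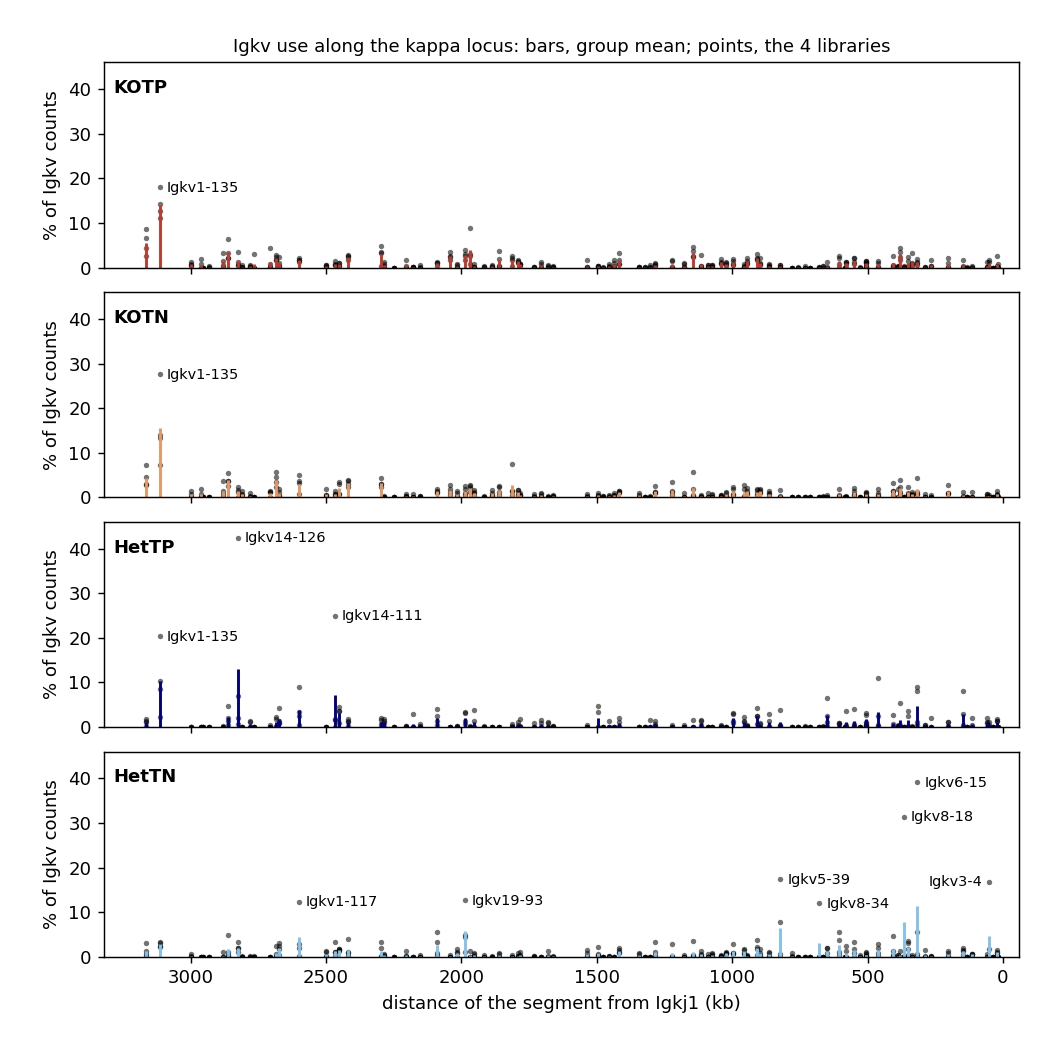
Share of Igkv counts (percent) of each of 100 segments against its distance from Igkj1 (kb), with bars at the group mean and points for the 4 libraries; segments that reach 12% in a library of the group are named. Igkv1-135 stands out in both KO groups, whereas the tall points of HetTP and HetTN fall on different segments, up to 42.5% for Igkv14-126.

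Homozygous and heterozygous tdTomato-positive cells were then compared segment by segment. Counts were fitted for all genes with edgeR's quasi-likelihood test, and a gene was called at a Benjamini-Hochberg adjusted p under 0.05 over the 10687 genes tested. Of the 101 segments, 84 passed the filter on low counts and were tested. Between KOTP and HetTP, 20 were called, 23.8% of those tested, where 10.3% of all genes were called. Of these, 15 were lower (17.9%, against 5.22% of all genes) and 5 higher (5.95%, against 5.06% of all genes), so the higher calls were near the background. The median log2 fold change was -2.13 over the tested segments and -0.03 over all genes tested. Libraries did not overlap for 13 lower segments, against 8.69% of all genes, and for 9 higher segments, against 11.5% of all genes. The standard error was large, with a median of 1.55 for the segments and 0.47 for all genes. Leaving out library KOTP-1, KOTP-2, KOTP-3 or KOTP-4 reduced the 20 calls to 11, 12, 11 or 11, and without HetTP-1 and HetTN-2 together 27 were called.

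The segments with the strongest evidence were all lower in KOTP. Igkv1-110 had 2.18, 7.17, 2.16 and 6.76 CPM in KOTP and 330, 120, 140 and 34.7 CPM in HetTP, a log2 fold change of -5.08 (SE 0.71, edgeR adjusted p = 0.00012). Its lowest HetTP library was still above every KOTP library. Igkv10-96 had 2.83, 9.16, 6.72 and 6.3 CPM in KOTP and 131, 17.4, 125 and 110 CPM in HetTP (log2 fold change -3.94, SE 0.64, edgeR adjusted p = 0.000522). Igkv5-48 had 10.5, 12.7, 4.79 and 5.38 CPM in KOTP and 82.3, 106, 91.3 and 54.1 CPM in HetTP (log2 fold change -3.33, SE 0.54, edgeR adjusted p = 0.000488). Igkv12-44 fell less, with 20.3, 11.4, 14.7 and 13.4 CPM in KOTP and 53.2, 83.6, 136 and 104 CPM in HetTP (log2 fold change -2.66, SE 0.44, edgeR adjusted p = 0.000625). None of these segments overlapped between the groups.

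Igkv1-135 fell in level although it led the KOTP libraries in share. It had 125, 99.4, 92.3 and 68.2 CPM in KOTP and 209, 289, 321 and 884 CPM in HetTP, a log2 fold change of -2.15 (SE 0.48, edgeR adjusted p = 0.00711). That is close to the median change of the tested segments. Igkv6-25, Igkv1-117 and Igkv9-120 were the other named falls, with log2 fold changes of -3.72, -3.57 and -3.55 and edgeR adjusted p of 0.0142, 0.00977 and 0.00338. Without KOTP-2, Igkv6-25 was no longer called (edgeR adjusted p = 0.0518). The pair that dominated HetTP-1 was also called, Igkv14-126 at -6.73 (SE 1.62) and Igkv14-111 at -6.72 (SE 1.75), with edgeR adjusted p of 0.0184 and 0.0275. For Igkv14-126 the levels were 3.34, 24.4, 9.34 and 3.38 CPM in KOTP and 3895, 238, 19.7 and 83.0 CPM in HetTP, and the ranges overlapped. Igkv14-111 lost the call without any 1 KOTP library (edgeR adjusted p of 0.0701 to 0.0906) and Igkv14-126 without KOTP-1, KOTP-3 or KOTP-4 (0.0646 to 0.0685).

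The 5 segments higher in KOTP were few-count segments in HetTP, and are named after their values were seen. Igkv10-95 had 142, 86, 158 and 282 counts in KOTP and 0, 0, 6 and 0 in HetTP (edgeR adjusted p = 0.00415), so it was counted in 1 of 4 HetTP libraries. Its neighbour Igkv10-96, 94.2% identical and shown above, moved the other way. Igkv4-50 had 55, 62, 46 and 22 counts in KOTP and 8, 6, 0 and 18 in HetTP, a log2 fold change of 3.23 (SE 0.82, edgeR adjusted p = 0.0142). Igkv12-89 had 24, 24, 12 and 4 counts in KOTP and none in HetTP, at least 33.0-fold higher against a floor of 3 counts over the HetTP group (edgeR adjusted p = 0.044). Igkv4-53 had 92 counts in KOTP and 2 in HetTP, a scaled ratio of 71.1 with a 95% counting interval of 19.1 to 596 (exact binomial; edgeR adjusted p = 0.042). Igkv4-69 had 8, 89, 66 and 24 counts in KOTP and 0, 0, 5 and 0 in HetTP (edgeR adjusted p = 0.0473). The calls of Igkv12-89, Igkv4-53 and Igkv4-69 were lost when any 1 KOTP library was left out. Igkv12-89 also lost it without any 1 KOTN or HetTP library, and Igkv4-69 without any 1 KOTN library, HetTP-1, HetTP-2 or HetTP-4. Igkv4-53 also lost it without KOTN-2, KOTN-4, HetTP-2, HetTP-3, HetTP-4, HetTN-1 or HetTN-3. In these leave-outs the edgeR adjusted p ran from 0.0595 to 0.0861 for Igkv12-89, from 0.0508 to 0.0984 for Igkv4-53 and from 0.0644 to 0.128 for Igkv4-69. With voom, another test run on the same counts, none of the 5 was called.

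**Figure D5:**
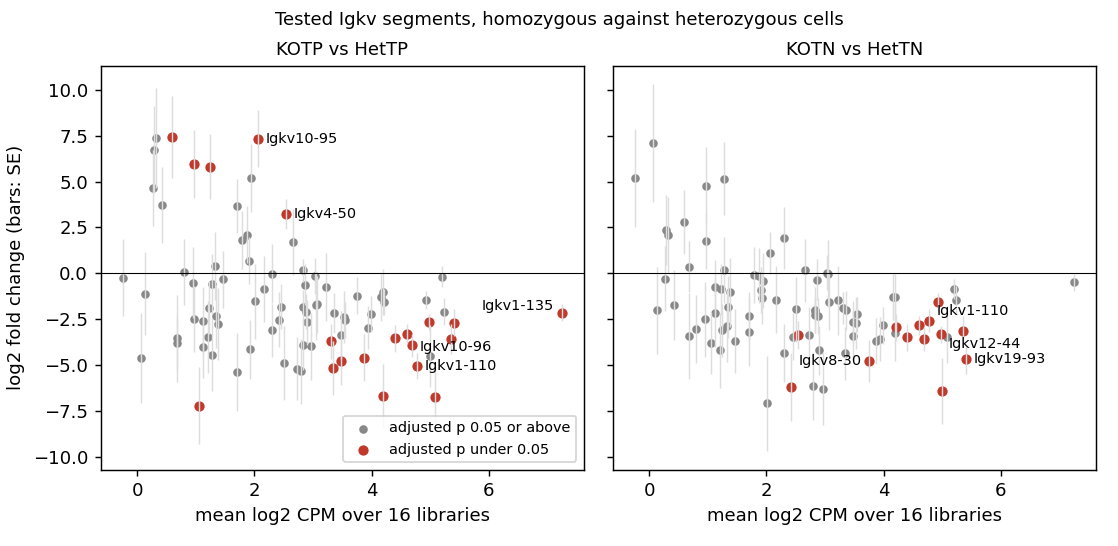
Log2 fold change of the 84 tested Igkv segments (bars, SE) against their mean log2 CPM over the 16 libraries, for KOTP against HetTP (left) and KOTN against HetTN (right), with called segments in red. Most segments lie below 0, 66 of 84 on the left and 70 of 84 on the right, and the called higher segments on the left lie at low means.

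Among tdTomato-negative cells the direction was the same. Between KOTN and HetTN, 13 of 84 tested segments were called, all lower (15.5%, against 4.88% of all genes called lower, 5.61% higher and 10.5% in either direction). The median log2 fold change was -2.11 over the segments and 0 over all genes tested. Libraries did not overlap for 16 segments, all lower in KOTN, against 7.12% of all genes lower and 12.6% higher. Without KOTN-2 or without KOTN-4, 8 segments were called, and without HetTP-1 and HetTN-2 together 21. The 2 genotype comparisons use separate libraries, but 1 fit over all 16 libraries and the same 2 deposited tables, so they are not independent. How many of all genes were called lower in both was not counted. Of the segments, 7 were called lower in both: Igkv1-110, Igkv1-117, Igkv10-96, Igkv12-44, Igkv19-93, Igkv5-48 and Igkv9-120. They are 46.7% of the lower calls among tdTomato-positive and 53.8% of those among tdTomato-negative cells. Of these, Igkv19-93 lost its call between KOTP and HetTP without any 1 KOTP library or HetTP-1 (edgeR adjusted p of 0.0577 to 0.0907). Igkv1-117 lost its call between KOTN and HetTN without KOTN-1, KOTN-2, KOTN-4 or HetTN-4 (edgeR adjusted p of 0.0559 to 0.0625). The libraries overlapped for Igkv19-93 between KOTP and HetTP and for Igkv1-117 between KOTN and HetTN.

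Igkv12-44 had 3.61, 12.5, 6.86 and 14.4 CPM in KOTN and 66.7, 44.6, 168 and 98.7 CPM in HetTN, a log2 fold change of -3.34 (SE 0.46, edgeR adjusted p = 0.000127). Igkv19-93 had 17.5, 4.56, 12.8 and 6.74 CPM in KOTN and 178, 107, 567 and 215 CPM in HetTN, a log2 fold change of -4.69 (SE 0.8, edgeR adjusted p = 0.00156). Both were separated by wide gaps, the highest KOTN library lying several-fold under the lowest HetTN library. Igkv8-30 had 13.3, 4.44, 1.57 and 0.241 CPM in KOTN and 151, 113, 243 and 22.5 CPM in HetTN, a log2 fold change of -4.78 (SE 1.16, edgeR adjusted p = 0.0159). It was no longer called without KOTN-2 (edgeR adjusted p = 0.0589) or without KOTN-3 (0.0609). Igkv10-96, Igkv9-120, Igkv4-68, Igkv5-48 and Igkv1-110 had log2 fold changes of -3.59, -3.5, -2.95, -2.83 and -2.58, with edgeR adjusted p of 0.00119, 0.00476, 0.0152, 0.00185 and 0.0136. Igkv4-68 lost the call without KOTN-3 (edgeR adjusted p = 0.0568) and Igkv1-110 without KOTN-4 (0.0506).

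Relative use gave a different picture from level. Of the 101 segments, the share of Igkv counts was higher in every KOTP than in every HetTP library for 18 and lower for 0. Between KOTN and HetTN it was higher for 10 and lower for 0. Igkv10-95, Igkv12-89, Igkv4-51, Igkv4-69, Igkv5-45 and Igkv8-16 were higher in both. Within a genotype, the share was higher for 2 and lower for 1 between HetTP and HetTN. It was higher for 2 and lower for 0 between KOTP and KOTN. Such shares have no counterpart over all genes. In level, 11.5% of all genes were higher and 8.69% lower without overlap between KOTP and HetTP. Between KOTN and HetTN these were 12.6% and 7.12%. Shares of a library sum to 100%, and the large shares of a few segments in HetTP-1 and HetTN-2 lower all others there. The share of Igkv10-95 was 2.64, 1.64, 2.45 and 3.51% in KOTP and 0, 0, 0.0113 and 0% in HetTP. It was 2.71, 1.95, 0.561 and 1.19% in KOTN and 0, 0.0448, 0.374 and 0.0181% in HetTN.

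The tdTomato comparison asked whether cells with an active reporter used other segments within a genotype. Between HetTP and HetTN, 3 of 84 segments were called, all lower in HetTP (3.57%, against 0.468% of all genes called lower, 0.599% higher and 1.07% in either direction). Igkv4-50 had 0.666, 0.436, 0 and 1.23 CPM in HetTP and 41.2, 92.9, 29.4 and 37.7 CPM in HetTN, a log2 fold change of -6.42 (SE 0.92, edgeR adjusted p = 0.00396). Its HetTP libraries were all far below its HetTN libraries, the 1 segment without overlap, against 2.06% of all genes lower without overlap. Igkv2-112 had 10, 0, 0 and 0 counts in HetTP and 401, 124, 0 and 678 in HetTN (edgeR adjusted p = 0.0493). Igkv4-53 had 2, 0, 0 and 0 counts in HetTP and 345, 0, 402 and 249 in HetTN (edgeR adjusted p = 0.0386), and 608 times as high a scaled level in HetTN with a 95% counting interval of 168 to 5030. The other 2 segments with the smallest p did not pass: Igkv10-95 had 6 counts in HetTP and 319 in HetTN (edgeR adjusted p = 0.0604), and Igkv4-80 had 1173 counts in HetTP and 5 in HetTN (edgeR adjusted p = 0.105).

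Leaving out libraries changed these Het calls. Only Igkv4-50 was called without KOTP-1, KOTP-2, KOTP-3, KOTP-4, KOTN-2, KOTN-4, HetTP-2 or HetTP-4, which left 1 call each. Without those libraries the edgeR adjusted p ran from 0.0588 to 0.0682 for Igkv4-53 and from 0.075 to 0.0821 for Igkv2-112. Igkv4-53 was also lost without HetTP-1 (edgeR adjusted p = 0.0519) or HetTP-3 (0.0556), and Igkv2-112 without KOTN-1, KOTN-3, HetTP-3 or HetTN-4 (0.0674 to 0.0776). Without HetTP-1 and HetTN-2 together, 6 segments were called. A fit of the 8 Het libraries alone called 0 segments, and so did voom. The summed level and the evenness overlapped between HetTP and HetTN, and leaving out single libraries moved the log2 difference of the summed level between -0.59 and 0.06.

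Between KOTP and KOTN no segment was called by edgeR's quasi-likelihood test, 0 of 84, where 0.0187% of all genes were called, 0.00936% higher and 0.00936% lower. Among the segments, 2 had an unadjusted p under 0.05. DESeq2 also called 0, voom 2 and a fit of the 8 KO libraries alone 3. The 5 segments with the smallest p had an edgeR adjusted p of 1. Igkv8-28 had 63, 57, 87 and 30 counts in KOTP and 15, 1, 1 and 0 in KOTN, without overlap. Igkv4-51 had 67, 42, 64 and 161 counts in KOTP and 19, 26, 28 and 26 in KOTN, also without overlap. All genes without overlap were 3.02% higher and 4.24% lower. Igkv1-110 had 2.18, 7.17, 2.16 and 6.76 CPM in KOTP and 5.69, 28.4, 21.5 and 5.9 CPM in KOTN, which overlapped. Igkv12-46 had 74 counts in KOTP and 332 in KOTN. Igkv6-14 had 3 counts in KOTP and 46 in KOTN, of which KOTN-3 held nearly all. The summed level was 618 to 735 CPM in KOTP and 701 to 813 CPM in KOTN, with overlap. A p that misses the threshold does not show that the sorts use the same segments.

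The difference between the tdTomato effects of the 2 genotypes was tested as an interaction, and 1 of 84 segments was called (1.19%, against 0.122% of all genes, 0.0749% with a higher and 0.0468% with a lower difference). For Igkv4-50 the KO minus Het difference was 6.61 on the log2 scale (SE 1.14, edgeR adjusted p = 0.0368). Its counts were 55, 62, 46 and 22 in KOTP and 58, 60, 22 and 16 in KOTN, and 8, 6, 0 and 18 in HetTP and 371, 1074, 451 and 417 in HetTN. It was thus higher in KOTP than in HetTP and lower in KOTN than in HetTN (log2 fold change -3.37, SE 0.79, edgeR adjusted p = 0.0108), the only segment called in opposite directions. The interaction call was lost when any 1 of the 8 KO libraries was left out, with edgeR adjusted p of 0.051 to 0.126, and without HetTN-2 2 segments were called. That call of Igkv4-50 was also lost with voom, with a replicate block, and without HetTP-1 and HetTN-2 together. Igkv4-53, Igkv10-95, Igkv2-112 and Igkv1-110 followed with differences of 8.92, 6.22, 6.01 and -2.51 and edgeR adjusted p of 0.157, 0.21, 0.284 and 0.307.

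The genes around the segments were read from lists of light chain partners. Of Igkc and the 5 Igkj segments, 1 of 6 fell in each genotype comparison, Igkc, while Igkj1 to Igkj5 had log2 fold changes of -1.83 to -0.74 between KOTP and HetTP and of -1.57 to -0.99 between KOTN and HetTN that did not pass. Of 9 lambda genes, 2 rose in KOTP and 3 in KOTN, and 0 fell, against 5.06% of all genes called higher and 5.22% lower in KOTP and 5.61% higher and 4.88% lower in KOTN. Iglv1, the lambda 1 variable segment, had 10200 ± 184 CPM in KOTP and 1240 ± 405 CPM in HetTP (log2 fold change 3.04, SE 0.21, edgeR adjusted p = 5.4e-08). It had 9630 ± 705 CPM in KOTN and 1950 ± 438 CPM in HetTN (log2 fold change 2.3, SE 0.21, edgeR adjusted p = 1.6e-06; SD, n = 4 per group). Iglc1, the matching constant gene, had log2 fold changes of 2.95 and 1.92 in the same comparisons. It was lower in HetTP than in HetTN (-0.92, SE 0.14, edgeR adjusted p = 0.00396), and its tdTomato effect differed between the genotypes by 1.02 (SE 0.19, edgeR adjusted p = 0.0429). Iglv2, at 8620 CPM in HetTN-1, gave that library its high lambda level.

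Of 15 transcription factors that act on the kappa locus or on B cell identity, 0 rose and 7 fell in KOTP, and 2 rose and 5 fell in KOTN. Of all genes, 5.06% were called higher and 5.22% lower in KOTP, and 5.61% higher and 4.88% lower in KOTN. Tcf3, which encodes the enhancer-binding E2A proteins, had log2 fold changes of -1.84 in KOTP and -1.53 in KOTN, and Pax5, the B lineage commitment factor, of -1.54 and -1.61. Pou2f2 and the NF-kappa-B subunit gene Rela fell in both, and Irf4, Spib and Pou2af1 in KOTP, with Pou2f1 in KOTN. Irf8 (0.58) and Ikzf3 (0.59) rose in KOTN. Among 10 genes of V(D)J recombination and end joining, 7 were tested and 1 rose in KOTP, Prkdc (log2 fold change 0.92, edgeR adjusted p = 0.0308), with 0 in KOTN. Dntt had no count in any of the 16 libraries, and Rag2 had none in KOTP, KOTN and HetTN and 34 counts in HetTP. Rag1 had 204 counts in HetTP, 2 in KOTP and none in KOTN and HetTN. The HetTP counts of Rag1 and of Rag2 each came from 1 library. Of 4 surrogate light chain genes, 1 was tested and it did not pass. The median log2 fold changes of the factor list were -0.56 in KOTP and -0.07 in KOTN, against -0.03 and 0 over all genes.

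Markers of other cells moved with the genotype. The counts here stand against 5.06% of all genes called higher and 5.22% lower in KOTP, and 5.61% higher and 4.88% lower in KOTN. Of 8 B cell markers, 6 rose in each KO group, with summed levels of 15900 to 17700 CPM in KO and 9920 to 14400 CPM in Het libraries. The 8 T cell markers summed to 0.277 to 1.82 CPM in KO libraries, where Cd3e, Cd4 and Cd8a had no count, and to 129 to 554 CPM in Het libraries, where Cd4 had none; 2 of 4 tested fell in each KO group. The 8 macrophage markers summed to 47.5 to 94.9 CPM in KO and 109 to 1130 CPM in Het libraries, and 5 fell in KOTP and 6 in KOTN. Adgre1 of this list went the other way without being called. It averaged 39.5 CPM in KOTP and 9.84 CPM in HetTP, and 42.4 CPM in KOTN and 12 CPM in HetTN. The 8 markers of plasma cells, which make much light chain RNA, summed to 1120 to 1230 CPM in KOTP and 879 to 934 CPM in HetTP, and to 1190 to 1330 CPM in KOTN and 1190 to 2230 CPM in HetTN. Of 7 tested plasma cell genes, 1 rose and 1 fell in KOTP, and 0 rose and 2 fell in KOTN. Mzb1 rose, at 1020 ± 50.6 CPM in KOTP and 577 ± 66.2 CPM in HetTP (SD, n = 4 per group). Its log2 fold change was 0.82 (SE 0.14, edgeR adjusted p = 0.000645). Jchain fell in both KO groups and Slamf7 in KOTN. Jchain, expressed in plasmablasts, had 5.01 to 7.52 CPM in KOTP and 73.7 to 193 CPM in HetTP, and 17.1 to 98.5 CPM in KOTN and 181 to 636 CPM in HetTN. It was lower in KOTP than in KOTN (log2 fold change -3, SE 0.49, edgeR adjusted p = 0.0472). Of 6 germinal center markers, 4 fell in KOTP and 3 in KOTN. The part of these cells in the Igkv differences was not tested.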

How the data were processed

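The authors deposited 1 table of raw counts over coding sequence per genotype, per the file headers; reads were trimmed with Trim Galore, aligned with STAR 2.2.0 and counted with featureCounts, per the submitters' processing notes. Strand, read pair and multiple-mapping settings are not given in the sources used here. Another 16 per-library columns, of scaled values, were not used. The 22680 rows of each table were joined by symbol into 22675 genes, without 4 rows of duplicated names per table; 88.8% of symbols matched GENCODE M21.

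Counts were fitted with edgeR 4.0.16 (R 4.3.3, limma 3.58.1): TMM scaling, filterByExpr with a minimum count of 10, robust quasi-likelihood fit on the means of 4 groups of 4 libraries, 12 residual degrees of freedom, and Benjamini-Hochberg adjustment over 10687 genes. CPM are counts scaled to 1e+06 of the TMM-adjusted library total. The fit was run on simulated data with known changes. Their spread between libraries was set below that of these data, whose common biological coefficient of variation was 0.687. That run therefore does not show how the fit performs on the Igkv segments. Intervals and the floor of 3 counts cover counting error only, and p-values rest on the spread among these libraries, which may be technical. Alternatives were other scalings and filters, DESeq2 1.42.0, voom, a replicate block, the compared libraries alone and each library left out. Named segments were the 10 highest by mean share, the 3 highest per group, each library's leader, and per comparison called segments whose libraries did not overlap and whose mean log2 CPM reached 3, or the 5 smallest p where fewer than 5 passed. The members, gene lists and tests were chosen with earlier results of these data known. Sequences were read from GENCODE M21 transcripts with Biopython 1.88.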

Additional observations from a re-analysis of the deposited data

Results flagged for a closer look

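A library lay far from the other 3 of its group, by Dixon's criterion at the 95% level, in 29 of 152 groups of 4 values. In 6 of these the other 3 libraries had no count, so that any single count meets the criterion. That leaves 23 of 146 groups. The chance rate of about 1 in 20 holds for unselected, normally distributed values without ties. Segments were named partly because they led a library, so that rate is no measure for these groups. Of all 29 flagged groups, 8 were in KO and 21 in Het cells. HetTN-2 was high in summed level (10428 CPM), and KOTN-4 (29.6) and HetTP-1 (8.94) were low in effective number of segments. HetTP-1 was high in the shares of Igkv14-126 (42.5%), Igkv14-111 (24.9%), Igkv4-92 (0.328%), Igkv2-112 (0.00907%) and Igkv4-53 (0.00181%). HetTP-2 was high in Igkv9-120 (4.36%), and HetTP-3 in Igkv5-39 (3.72%), Igkv8-28 (3.69%), Igkv10-95 (0.0113%) and Igkv4-69 (0.00945%). HetTN-1 was high in Igkv3-4 (16.8%) and Igkv4-92 (1.32%). HetTN-2 was high in Igkv6-15 (39.1%) and Igkv8-18 (31.4%). HetTN-3 was high in Igkv6-14 (1.45%), Igkv4-86 (0.45%) and Igkv10-95 (0.374%), and HetTN-4 in Igkv5-48 (2.79%) and Igkv12-89 (0.0847%).

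Among KOTN libraries, KOTN-3 was high in Igkv4-86 (7.41%), Igkv6-15 (4.41%), Igkv2-112 (1.76%) and Igkv6-14 (0.705%). KOTN-4 was high in Igkv5-39 (1.64%), KOTN-1 in Igkv8-28 (0.292%) and KOTN-2 in Igkv8-18 (0.115%). The tdTomato effect on Igkv4-50 differed between the genotypes by 6.61 on the log2 scale, KO minus Het (edgeR adjusted p = 0.0368).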

How the results depend on the processing

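Calls of Igkv segments were 20 for KOTP against HetTP, 13 for KOTN against HetTN, 3 for HetTP against HetTN, 0 for KOTP against KOTN and 1 for the difference of effects. RLE, upper quartile and immunoglobulin-free scaling, no filter and a filter at 5 CPM in 4 libraries kept each count within 1.5 times. DESeq2 gave 24 for KOTN against HetTN, 7 for HetTP against HetTN and 4 for the difference. Voom gave 0 for HetTP against HetTN, 2 for KOTP against KOTN and 0 for the difference, and fits of the compared libraries alone gave 0 for HetTP against HetTN and 3 for KOTP against KOTN. Leaving out each library in turn gave 11 to 25, 8 to 19, 1 to 4, 0 to 0 and 0 to 2 calls in the order above. Without HetTP replicate 1 and HetTN replicate 2, an alternative chosen after seeing the data, 27, 21, 6 and 2 segments were called for KOTP against HetTP, KOTN against HetTN, HetTP against HetTN and the difference. The 2 called for the difference did not include Igkv4-50. The calls over all genes under each alternative are not given, here or above. Whether these changes are particular to Igkv segments is therefore not shown. Their cause was not tested.

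The log2 difference of the summed level was -2.73, -2.85, -0.25 and -0.13 for the first 4 comparisons, and -2.9 to -2.39, -2.99 to -2.54, -0.59 to 0.06 and -0.16 to -0.08 with a library left out. That of the effective number was 0.92, 0.82, -0.04 and 0.06, and 0.5 to 1.09, 0.35 to 1.03, -0.52 to 0.38 and -0.08 to 0.13. Of 30 calls named in the text, 13 held under every alternative run, 17 were lost under at least 1, and none changed sign. The uncalled Igkv6-14, KOTP against KOTN, ran from -4.94 to 0.02 with a library left out, turning positive without KOTN replicate 3.

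Equal replicate numbers were not taken to pair the tdTomato sorts. The correlations of same-numbered deviations ran from -0.005 to 0.074 in KO and from -0.005 to 0.093 in Het libraries over all genes tested. Over the Igkv segments they ran from 0.043 to 0.167 in KO and from -0.084 to 0.18 in Het libraries, and not every library correlated best with its own number. With a replicate block, 15, 11, 1, 0 and 0 segments were called. KO libraries held 5136 to 8038 Igkv counts and Het libraries 36680 to 120536, while the median SE of the segments was 1.46 both for KOTP against KOTN and for HetTP against HetTN. The fit estimates the spread of a segment once over all 16 libraries. These SE therefore do not measure the spread within either genotype. The median coefficient of variation of the share, given above, was larger over Het libraries.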
